A study of Mus musculus with 8 samples.

Results

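The glycolysis and hypoxia response genes described here are 34 named genes of glucose breakdown, lactate export and the response to low oxygen. They were taken as a fixed list of symbols, matched to Ensembl gene identifiers through the GENCODE M21 annotation, and all 34 were found among the 52636 genes counted. The RNA came from immune cells of spleens and lymph nodes of pre-symptomatic mice, aged 35 to 55 days and labelled TCR1640 or SJL/J, male or female. TCR1640 is a T cell receptor transgenic line on the SJL/J background whose T cells recognise a myelin protein and which develops spontaneous autoimmune inflammation of the nervous system, and SJL/J mice are its wild-type strain. The 4 groups were TCR1640 males, TCR1640 females, SJL/J males and SJL/J females, with 2 count columns each. All groups shared the same 4-day culture with 10% foetal bovine serum, IL-23 at 20 ng/ml, TGF-β at 4 ng/ml, IL-6 at 20 ng/ml, IL-12 at 3 ng/ml and anti-CD3 at 1 μg/ml, a stimulation toward T helper type 1 and 17 cells. No unstimulated cells were measured here, no cell sort is described, and oxygen and glucose levels in the cultures are not stated.

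Glycolysis splits glucose into pyruvate in the cytosol, and activated T cells raise it strongly and turn much of the pyruvate into lactate, which they export. The oxygen-sensitive transcription factor HIF, whose regulated subunit is encoded by Hif1a, is stabilised when prolyl hydroxylases cannot act on it, and it switches on most glycolytic enzymes together with genes for mitochondrial turnover and protein folding. T cell receptor and cytokine signals also raise HIF in normal oxygen, and T helper 17 cells are known for a high use of this programme.

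Some facts of the series bear on every value. Within each group the 2 columns agreed nearly to sampling noise (chi-square per degree of freedom 1.050 to 1.077, against 3.12 to 17.1 between groups), so each pair was summed and counted as 1 sample, and nothing says whether columns came from separate mice. Column totals ran from 3765291 to 5116467 counts. The transgenic receptor's beta segment Trbv2 made up 20.6% and 19.7% of Trbv counts in the libraries labelled TCR1640 (males, females), against 63.1% and 58.3% in those labelled SJL/J. That goes against the strain labels, so every direction below holds between libraries labelled TCR1640 and SJL/J, and which mice they came from is unsettled. The genes Xist and Eif2s3y matched the labelled sex in 8 of 8 columns. Among 985 pairs of a coding gene and a noncoding feature on the opposite strand, 746 (75.7%, exact 95% interval 72.9 to 78.4%) had more counts on the noncoding one. How strand was counted is not given, so counts of a member and of a feature opposite to it cannot be told apart. Whether reads counted on any member, with or without such a feature, came from its own strand was not tested.

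Between strain labels, 17 of the 34 members fell and 3 rose in the libraries labelled TCR1640, while 14 did not pass the test. Of all 17261 genes tested, 26.5% passed, 13.1% as lower and 13.4% as higher, so lower calls took a larger share of the members than of all genes, and higher calls did not. The members' median log2 ratio was -0.31, against 0.01 for all genes. The falls were moderate and included hexokinases (Hk1, Hk2), lower glycolytic enzymes (Pgam1, Eno1), lactate dehydrogenase A (Ldha) and the lactate exporter Slc16a3, which had the lowest ratio of all members at -0.86. The 3 that rose, Pfkfb4, Aldoc and Ldhb, are less abundant relatives of enzymes that fell or did not pass. The test was edgeR's quasi-likelihood test on the 4 summed samples with sex as covariate, called at a Benjamini-Hochberg adjusted p under 0.05, and with 1 residual degree of freedom its error rests on spread shared across genes. Of the 20 calls, 8 held under all 21 alternatives (Hk1, Hk2, Tpi1, Pgam1, Eno1, Ldha, Slc16a3 and Ero1l). DESeq2 called these same 8 lower and none higher, and limma-voom called 18. Both TCR1640-labelled samples lay below both SJL/J-labelled samples for 18 members and above them for 7, while 9 overlapped, against 28.8% of all genes below and 29.7% above.

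**Figure D1:**
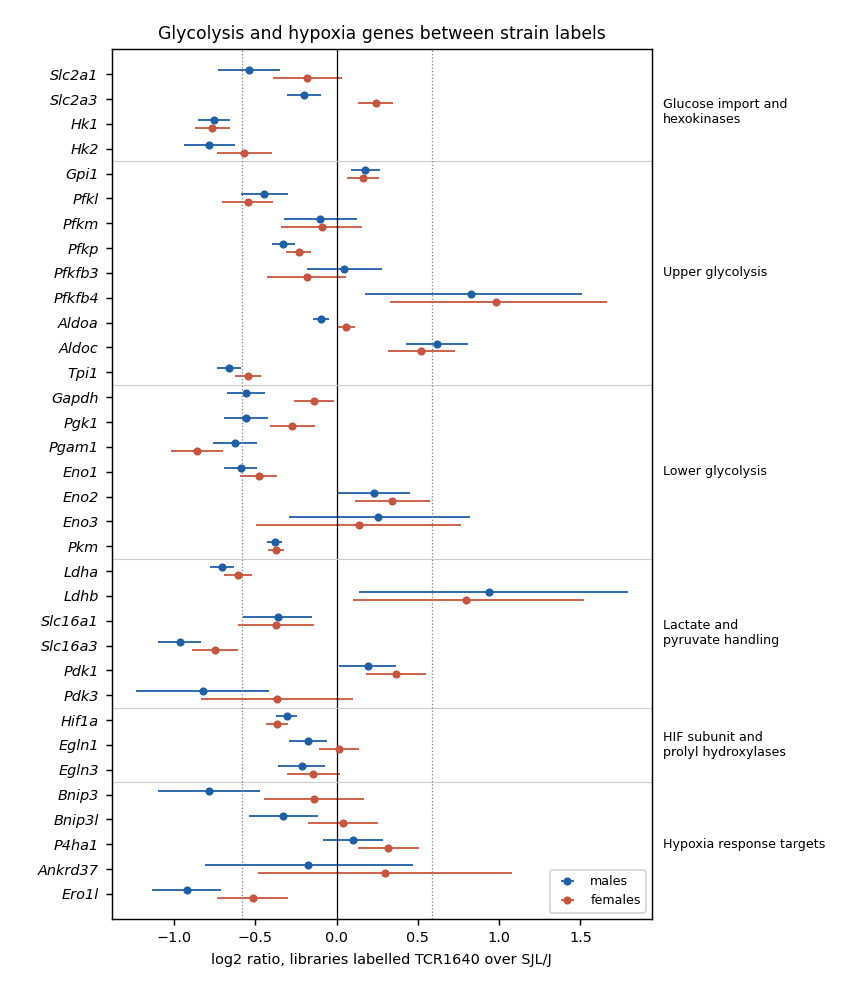
Log2 ratio of libraries labelled TCR1640 over SJL/J for each of the 34 members, in males (blue) and females (red), on TMM-scaled summed counts, ordered by role. Bars are exact 95% intervals of counting error and dotted lines mark 1.5-fold; most lower glycolytic and lactate genes lie left of 0 in both sexes, and Pfkfb4, Aldoc and Ldhb lie right of it.

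Within each sex there was 1 sample a group, and the exact 95% interval beside each ratio reflects read sampling alone. A member was counted as past the fold when it differed by at least 1.5-fold (0.58 on the log2 scale) and the interval excluded equality. In males 10 members were lower past the fold (Hk1, Hk2, Tpi1, Pgam1, Eno1, Ldha, Slc16a3, Pdk3, Bnip3 and Ero1l) and 3 were higher (Pfkfb4, Aldoc and Ldhb), where 24.6% of all genes passed (12.7% lower, 11.9% higher). In females 4 were lower (Hk1, Pgam1, Ldha and Slc16a3) and 2 were higher (Pfkfb4 and Ldhb), where 20.7% of all genes passed (10.7% lower, 9.99% higher). The counts in females lie close to or under the background shares. By sign alone, 25 of 34 members were lower in TCR1640-labelled males and 21 of 34 in TCR1640-labelled females, where 49.9% and 51.4% of all genes were higher by any amount, and the medians were -0.33 in males and -0.16 in females.

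Summed levels of several sets of cell type markers differed between strain labels. Each pair of sums gives males, then females. Summed over 9 naive T cell markers (among them Tcf7, Lef1 and Ccr7) the libraries labelled TCR1640 held 1299.7 and 1289 CPM, against 467 and 474 CPM in those labelled SJL/J. Over 5 CD8 T cell markers, of which Gzmk was at 0 in all 4 samples, the sums were 294 and 292 CPM in the TCR1640 label, against 56.5 and 48.0 CPM in the SJL/J label. The 7 Th17 markers ran the other way, at 359.9 and 367 CPM in the TCR1640 label against 870.1 and 763 CPM in the SJL/J label. So did 14 genes of G2 and mitosis, at 774 and 740.3 CPM (TCR1640 label) against 1188 and 1148 CPM (SJL/J label). The 10 neutrophil markers summed to 16.1 and 20.7 CPM (TCR1640 label) against 162 and 66.3 CPM (SJL/J label), with S100a8 and Elane at 0 counts in both samples labelled TCR1640. The 10 erythroid and platelet markers summed to 41.5 and 43.6 CPM (TCR1640 label) against 303 and 177 CPM (SJL/J label), and the 8 mast cell and basophil markers to 76.6 and 72.3 CPM (TCR1640 label) against 120.4 and 105 CPM (SJL/J label). The 8 B cell markers summed to 51.7 and 47.6 CPM (TCR1640 label) against 36.8 and 32.4 CPM (SJL/J label). Sums lay closer together over 8 general T cell markers, at 1529 and 1465 CPM (TCR1640 label) against 1281 and 1195 CPM (SJL/J label), and over 8 monocyte and macrophage markers, at 139 and 137 CPM (TCR1640 label) against 128 and 129 CPM (SJL/J label). Some sums hid markers on the other side. In the TCR1640 label, 7 of 9 tested neutrophil markers were called lower and 1 higher, and 6 and 1 of 8 mast cell and basophil markers. Called higher and lower were 3 and 1 of 7 tested B cell markers and 3 and 1 of 8 T cell markers. Of 3 tested monocyte and macrophage markers, 0 were higher and 1 lower. Of all genes, 13.1% were lower and 13.4% higher. The part of these populations in the members' differences was not tested, and in such bulk samples fewer cells of a type and less RNA per cell cannot be told apart.

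The hypoxia response is read by HIF at the core letters ACGTG or GCGTG in promoters, so the members' promoters were searched for both, on both strands. Of the 34 members, 31 had a window in the RefSeq promoter table (GRCm38.p6), with 44 windows in all, and the 250 bases upstream of each start were read. At least 1 of the motifs stood there in 28 of 31 members (90.3%), against 41.5% of all 27025 genes in the table and 47.1% of 17491 coding genes. The members' windows were also richer in G and C, with a median of 62.2% against 55.6% for coding genes. ACGTG overlaps the palindrome CACGTG, read by MYC and other factors, which stood in 6 of 31 members and in 6.86% of all genes. Motifs stood in 15 of the 16 members with a window that fell, in 3 of 3 that rose and in 10 of 12 that did not pass, so their presence did not separate these classes. By letters, ACGTG stood in 11 of the 16 that fell, in 0 of the 3 that rose and in 7 of the 12 that did not pass, against 18.5% of all genes. GCGTG stood in 10 of the 16 that fell, in 3 of the 3 that rose and in 8 of the 12 that did not pass, against 30.9% of all genes. With 3 members that rose, a difference between the classes was not tested. The 5 that fell without ACGTG were Hk1, Tpi1, Pfkl, Eno1 and Gapdh, of which all but Tpi1 held GCGTG. A match is a description of the letters and not a bound site. The stretches below are the 150 bases upstream of a RefSeq start, 5′ to 3′ on the gene's strand, for 6 members that fell and 2 that rose. They were chosen after their letters were seen, to show 4 windows with ACGTG, 3 with GCGTG alone and 1 with neither. Capitals mark each ACGTG or GCGTG or its reverse complement.
Slc16a3 (chr11:120948917-120949066, plus strand): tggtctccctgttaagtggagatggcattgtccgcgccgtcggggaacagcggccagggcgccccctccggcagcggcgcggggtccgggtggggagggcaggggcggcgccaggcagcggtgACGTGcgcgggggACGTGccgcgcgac
Ldha (chr7:46845654-46845803, plus strand): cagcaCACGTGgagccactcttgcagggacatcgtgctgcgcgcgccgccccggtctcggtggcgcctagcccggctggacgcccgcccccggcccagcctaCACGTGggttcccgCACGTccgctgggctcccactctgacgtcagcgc
Hk2 (chr6:82774455-82774604, minus strand): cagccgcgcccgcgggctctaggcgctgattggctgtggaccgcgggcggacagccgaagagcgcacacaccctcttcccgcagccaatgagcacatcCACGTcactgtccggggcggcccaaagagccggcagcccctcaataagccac
Pgk1 (chrX:106186950-106187099, plus strand): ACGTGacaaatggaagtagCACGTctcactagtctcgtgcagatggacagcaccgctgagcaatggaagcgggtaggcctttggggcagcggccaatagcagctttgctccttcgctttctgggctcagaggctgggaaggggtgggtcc
Gapdh (chr6:125165774-125165923, minus strand): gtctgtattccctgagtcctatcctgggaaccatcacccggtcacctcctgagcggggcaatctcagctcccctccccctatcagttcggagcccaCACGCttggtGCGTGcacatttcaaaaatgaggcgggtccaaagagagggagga
Tpi1 (chr6:124814159-124814308, minus strand): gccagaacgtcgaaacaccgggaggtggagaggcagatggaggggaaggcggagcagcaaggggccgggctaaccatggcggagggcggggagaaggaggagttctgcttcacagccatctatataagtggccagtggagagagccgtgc
Aldoc (chr11:78324048-78324197, plus strand): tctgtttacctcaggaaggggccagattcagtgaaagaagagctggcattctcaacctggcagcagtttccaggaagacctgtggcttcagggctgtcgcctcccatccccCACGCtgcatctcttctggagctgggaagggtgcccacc
Pfkfb4 (chr9:108991752-108991901, plus strand): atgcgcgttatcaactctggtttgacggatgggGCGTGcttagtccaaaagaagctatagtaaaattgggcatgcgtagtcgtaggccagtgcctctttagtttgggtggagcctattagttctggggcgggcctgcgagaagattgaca
The stretch of Ldha holds 5 matches to ACGTG, 4 of them within 2 copies of the palindrome CACGTG, which reads the same on both strands. Those of Slc16a3 and Pgk1 hold 2 matches each, and that of Hk2 holds 1. Gapdh, which fell, holds 2 matches to GCGTG and 0 to ACGTG, and Tpi1, which also fell, holds 0 of either. Aldoc and Pfkfb4 each hold 1 match to GCGTG and 0 to ACGTG.

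Glucose import and its first phosphorylation are carried by 4 members, of which 3 fell and 0 rose. Hk1 (chr10:62268855-62379908 in GRCm38), the broadly expressed mitochondria-bound hexokinase, had 149 CPM in TCR1640-labelled males and 139 CPM in TCR1640-labelled females, against 251 CPM in SJL/J-labelled males and 237 CPM in SJL/J-labelled females (CPM, the count scaled to a common library size). Both TCR1640-labelled samples were lower than both SJL/J-labelled ones, with a log2 ratio of -0.76 (SE 0.12, edgeR adjusted p = 1.17e-08). Hk2 (chr6:82725025-82774454), the inducible hexokinase and a classic HIF target, had 59.0 and 59.5 CPM in the males and females labelled TCR1640, against 102 and 88.3 CPM in the males and females labelled SJL/J. The groups did not overlap, and the ratio was -0.68 (SE 0.13, edgeR adjusted p = 7.18e-06). Slc2a1 (chr4:119108711-119137983), the glucose transporter GLUT1, had 42.9 and 43.4 CPM in the males and females labelled TCR1640, against 62.3 and 49.2 CPM in the males and females labelled SJL/J. The SJL/J-labelled male was the high sample, the overall ratio was -0.36 (SE 0.14, edgeR adjusted p = 0.0407), and the female ratio of -0.18 (-0.39 to 0.03) included equality. The Slc2a1 call was lost without any 1 of 6 of the 8 columns (both TCR1640 males, both SJL/J males, TCR1640 female 1 and SJL/J female 2), at adjusted p between 0.0635 and 0.0865. Slc2a3 (chr6:122727809-122801640), the high-affinity glucose transporter GLUT3, had 156 CPM in TCR1640-labelled males and 195 CPM in TCR1640-labelled females, against 179 CPM in SJL/J-labelled males and 165 CPM in SJL/J-labelled females. Here the groups overlapped, the TCR1640-labelled female being highest and the TCR1640-labelled male lowest, and the ratio was 0.02 (SE 0.12, edgeR adjusted p = 0.940).

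**Figure D2:**
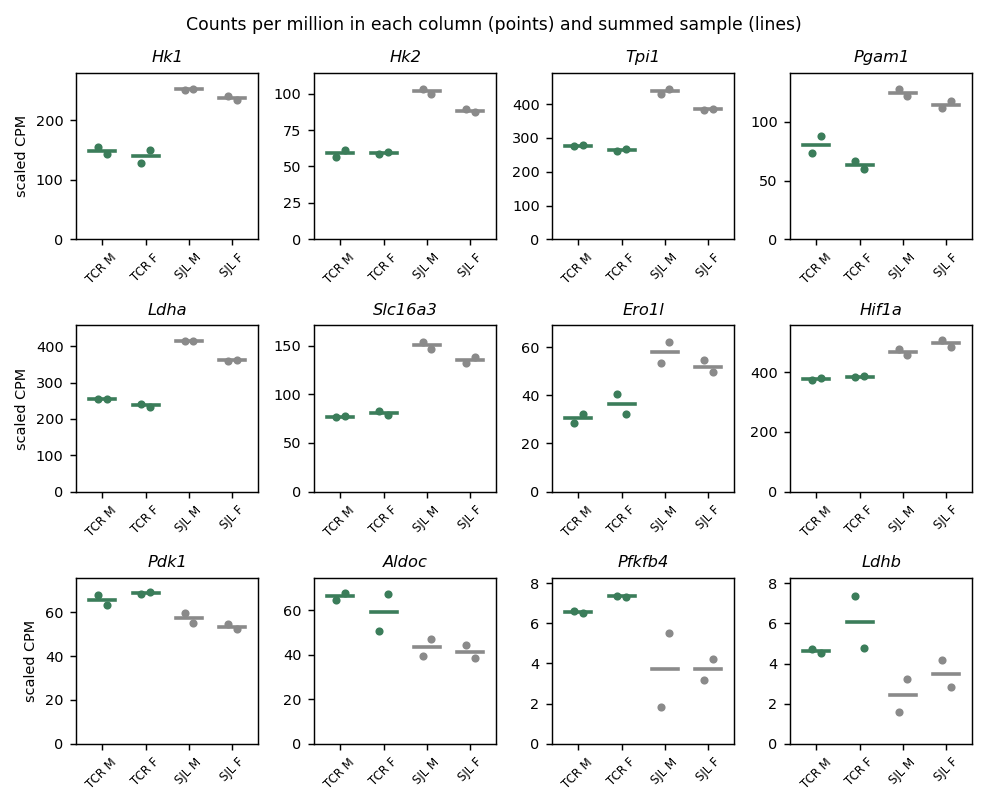
Scaled CPM (TMM library sizes) of 12 members in each of the 8 columns (points) and in the 4 summed samples (lines), males (M) and females (F) labelled TCR1640 left of those labelled SJL/J. The axes start at 0. The 2 columns of a group lie close together for most genes and groups. They lie further apart for Pfkfb4 in the SJL/J-labelled groups, Ldhb in all groups but TCR1640-labelled males, and Aldoc in TCR1640-labelled females.

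The preparatory steps from glucose phosphate to triose phosphate had 9 members, of which 2 fell, 2 rose and 5 did not pass. Tpi1 (chr6:124810586-124814296), the triose phosphate isomerase, had 277 CPM in TCR1640-labelled males and 264 CPM in TCR1640-labelled females, against 438 CPM in SJL/J-labelled males and 385 CPM in SJL/J-labelled females. It was lower in both sexes without overlap, at -0.60 (SE 0.12, edgeR adjusted p = 3.73e-06). Pfkl, the liver-type phosphofructokinase subunit, had 78.9 and 69.8 CPM in the males and females labelled TCR1640, against 107 and 102 CPM in the males and females labelled SJL/J. Its ratio was -0.50 (SE 0.13, edgeR adjusted p = 0.00130), and the groups did not overlap. Pfkp, the platelet-type subunit and the one with the most counts of the 3, had 318 and 317 CPM in the males and females labelled TCR1640, against 399.7 and 373 CPM in the males and females labelled SJL/J. The samples labelled TCR1640 were lower in both sexes, but the ratio of -0.28 (SE 0.12, edgeR adjusted p = 0.0579) missed the threshold. It passed without TCR1640 female 2, SJL/J male 1 or all number 1 columns (adjusted p between 0.0438 and 0.0455), and also with RLE or upper-quartile factors, a filter of at least 1 CPM in 2 samples, and the 8 columns as samples. Pfkm, the muscle-type subunit, had 35.7 and 32.5 CPM in the males and females labelled TCR1640, against 38.2 and 34.6 CPM in the males and females labelled SJL/J, and its ratio was -0.10 (adjusted p = 0.697 in edgeR).

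Pfkfb3 and Pfkfb4 are bifunctional enzymes that set the level of the main activator of phosphofructokinase. Pfkfb4 (chr9:108991778-109032228) had 6.55 and 7.35 CPM in the males and females labelled TCR1640, against 3.70 and 3.72 CPM in the males and females labelled SJL/J. Both TCR1640-labelled samples were higher, at 0.90 (SE 0.30, edgeR adjusted p = 0.0131), from 65 and 57 counts in TCR1640-labelled males and females against 29 and 31 in SJL/J-labelled ones. The call was lost without SJL/J male 1 (adjusted p = 0.120), the column with the lowest level. Pfkfb3 had 36.9 and 33.4 CPM in the males and females labelled TCR1640, against 35.7 and 37.9 CPM in the males and females labelled SJL/J, with overlapping groups and a ratio of -0.07. Among the aldolases, Aldoc (chr11:78322968-78327781), the brain-type enzyme, had 66.2 CPM in TCR1640-labelled males and 59.0 CPM in TCR1640-labelled females, against 43.2 CPM in SJL/J-labelled males and 41.2 CPM in SJL/J-labelled females. It was higher in both sexes, at 0.57 (SE 0.14, edgeR adjusted p = 0.000522). The Aldoc call was lost without the number 2 columns, where the ratio was 0.45, and in DESeq2. Aldoa, the main aldolase of most cells, had 734 and 713 CPM in the males and females labelled TCR1640, against 784 and 684 CPM in the males and females labelled SJL/J, and its ratio was -0.02 (SE 0.11, edgeR adjusted p = 0.936). Gpi1, the glucose phosphate isomerase, had 235 and 224 CPM in the males and females labelled TCR1640, against 207 and 199.8 CPM in the males and females labelled SJL/J. It was slightly higher in both sexes, but its ratio of 0.17 (SE 0.12, edgeR adjusted p = 0.323) did not pass.

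The payoff steps from triose phosphate to pyruvate had 7 members, of which 5 fell, 0 rose and 2 did not pass. Pgam1 (chr19:41911923-41918660), the phosphoglycerate mutase, had 80.8 CPM in TCR1640-labelled males and 63.3 CPM in TCR1640-labelled females, against 125 CPM in SJL/J-labelled males and 115 CPM in SJL/J-labelled females. The groups were far apart in both sexes, at -0.74 (SE 0.13, edgeR adjusted p = 3.27e-07). Eno1 (chr4:150236721-150248879), the general enolase, had 146 and 132 CPM in the males and females labelled TCR1640, against 220.0 and 184 CPM in the males and females labelled SJL/J, at -0.54 (SE 0.12, edgeR adjusted p = 0.000144). Pkm (chr9:59656368-59679375), the pyruvate kinase gene of most tissues other than liver and red cells, had 776 and 701 CPM in the males and females labelled TCR1640, against 1011 and 909 CPM in the males and females labelled SJL/J, at -0.38 (SE 0.11, edgeR adjusted p = 0.00397). Its counts were among the highest of the list, and the male and female ratios were nearly equal at -0.38 (-0.43 to -0.34) and -0.37 (-0.42 to -0.32). Pgk1, the first enzyme of the pathway to regain ATP, had 85.9 and 94.3 CPM in the males and females labelled TCR1640, against 126 and 114 CPM in the males and females labelled SJL/J, at -0.42 (SE 0.13, edgeR adjusted p = 0.00721). Gapdh, the glyceraldehyde phosphate dehydrogenase, had 109 and 124 CPM in the males and females labelled TCR1640, against 161 and 136 CPM in the males and females labelled SJL/J. Its ratio was -0.35 (SE 0.13, edgeR adjusted p = 0.0242), with a larger difference in males at -0.56 (-0.68 to -0.44) than in females at -0.14 (-0.26 to -0.01). The call was lost without TCR1640 female 1, TCR1640 male 2 or SJL/J male 2 (adjusted p between 0.0549 and 0.0790). Eno2, the neuronal enolase, had 43.0 and 43.9 CPM in the males and females labelled TCR1640, against 36.7 and 34.7 CPM in the males and females labelled SJL/J, higher in both sexes at 0.28 (SE 0.15, edgeR adjusted p = 0.143) without passing. Eno3, the muscle enolase, had few counts, with 7.15 and 5.80 CPM in the males and females labelled TCR1640, against 5.99 and 5.28 CPM in the males and females labelled SJL/J, and a ratio of 0.20 (adjusted p = 0.660 in edgeR).

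Lactate and pyruvate handling had 6 members, of which 4 fell, 1 rose and 1 did not pass. Slc16a3 (chr11:120948480-120960868), the lactate exporter MCT4, had 76.9 CPM in TCR1640-labelled males and 80.7 CPM in TCR1640-labelled females, against 150.2 CPM in SJL/J-labelled males and 136 CPM in SJL/J-labelled females. It was lower in both sexes, at -0.86 (SE 0.13, edgeR adjusted p = 8.54e-10). Ldha (chr7:46841475-46855627), which turns pyruvate into lactate, had 254 and 238 CPM in the males and females labelled TCR1640, against 414 and 362 CPM in the males and females labelled SJL/J. The groups did not overlap, at -0.66 (SE 0.12, edgeR adjusted p = 4.55e-07). Ldhb (chr6:142490249-142507957), the isoenzyme that favours the step from lactate to pyruvate, had 4.63 and 6.06 CPM in the males and females labelled TCR1640, against 2.42 and 3.48 CPM in the males and females labelled SJL/J. It rose by 0.86 (SE 0.34, edgeR adjusted p = 0.0415) from 46 and 47 counts in TCR1640-labelled males and females against 19 and 29 in SJL/J-labelled ones. At these counts the call was lost without TCR1640 female 1, TCR1640 male 1, TCR1640 male 2, SJL/J female 2 or SJL/J male 1 (adjusted p between 0.0693 and 0.154). Slc16a1, the lactate transporter MCT1, had 37.4 and 34.02 CPM in the males and females labelled TCR1640, against 48.1 and 44.1 CPM in the males and females labelled SJL/J, at -0.37 (SE 0.14, edgeR adjusted p = 0.0431). Its call was lost without TCR1640 female 1, TCR1640 male 1, SJL/J female 2 or SJL/J male 2 (adjusted p between 0.0806 and 0.158). Pdk1 and Pdk3 are kinases that switch off pyruvate dehydrogenase and so keep pyruvate out of mitochondria. Pdk3 had 8.86 and 8.76 CPM in the males and females labelled TCR1640, against 15.7 and 11.3 CPM in the males and females labelled SJL/J, at -0.61 (SE 0.21, edgeR adjusted p = 0.0188). The SJL/J-labelled male was highest, and the call was lost without TCR1640 female 1, TCR1640 male 1, SJL/J female 2 or SJL/J male 1 (adjusted p between 0.0683 and 0.0955). Pdk1, a well-known HIF target, had 65.6 and 68.8 CPM in the males and females labelled TCR1640, against 57.5 and 53.4 CPM in the males and females labelled SJL/J. It was higher in both sexes, the opposite side from Pdk3, but did not pass at 0.28 (SE 0.14, edgeR adjusted p = 0.132).

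The HIF subunit and 2 of its prolyl hydroxylases gave 1 call. Hif1a (chr12:73901375-73947530) had 377 CPM in TCR1640-labelled males and 385 CPM in TCR1640-labelled females, against 467 CPM in SJL/J-labelled males and 496 CPM in SJL/J-labelled females. It fell in the libraries labelled TCR1640, at -0.34 (SE 0.12, edgeR adjusted p = 0.0163), and the groups did not overlap. Egln1 and Egln3 encode the prolyl hydroxylases PHD2 and PHD3, and Egln3 is itself induced by HIF. Egln1 had 128 and 131 CPM in the males and females labelled TCR1640, against 145 and 129.7 CPM in the males and females labelled SJL/J, and Egln3 had 83.5 and 74.4 CPM in the males and females labelled TCR1640, against 97.0 and 82.1 CPM in the males and females labelled SJL/J. Neither passed, at -0.08 and -0.18 (edgeR adjusted p = 0.695 and 0.342).

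Of the 5 hypoxia response targets outside glycolysis, 2 fell and 3 did not pass. Ero1l (chr14:45283087-45318771), the endoplasmic reticulum oxidase that helps form disulphide bonds, had 30.5 CPM in TCR1640-labelled males and 36.3 CPM in TCR1640-labelled females, against 57.9 CPM in SJL/J-labelled males and 52.0 CPM in SJL/J-labelled females. It was lower in both sexes, at -0.72 (SE 0.14, edgeR adjusted p = 7.90e-06). Bnip3, a receptor for the removal of mitochondria, had 14.8 and 21.3 CPM in the males and females labelled TCR1640, against 25.5 and 23.4 CPM in the males and females labelled SJL/J. The TCR1640-labelled male was the low sample, with a male ratio of -0.78 (-1.10 to -0.47) and a female one of -0.14 (-0.45 to 0.17), and the overall ratio was -0.46 (SE 0.17, edgeR adjusted p = 0.0273). The call was lost without TCR1640 female 2, TCR1640 male 2, SJL/J female 1, SJL/J male 1 or SJL/J male 2 (adjusted p between 0.0538 and 0.133). Its relative Bnip3l had 37.6 and 45.5 CPM in the males and females labelled TCR1640, against 47.2 and 44.3 CPM in the males and females labelled SJL/J, at -0.15 (edgeR adjusted p = 0.507). P4ha1, a collagen prolyl hydroxylase subunit, had 56.0 and 65.3 CPM in the males and females labelled TCR1640, against 52.3 and 52.5 CPM in the males and females labelled SJL/J. It was higher in both sexes but did not pass, at 0.21 (SE 0.14, edgeR adjusted p = 0.292). Ankrd37, a small HIF target, had 4.63 and 4.12 CPM in the males and females labelled TCR1640, against 5.23 and 3.36 CPM in the males and females labelled SJL/J, and its ratio was 0.04 (SE 0.32).

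Counts per kilobase of exon were also set side by side between members. Aldoa was the highest member in all 4 samples, at 252, 245, 269 and 235 CPM per kb in TCR1640-labelled males, TCR1640-labelled females, SJL/J-labelled males and SJL/J-labelled females. Pkm followed at 155, 140.2, 202 and 182 CPM per kb, then Tpi1 at 101, 95.8, 159 and 139.8 CPM per kb and Ldha at 76.8, 71.8, 125 and 109 CPM per kb. At the low end stood Pfkfb4 at 1.34, 1.51, 0.758 and 0.764 CPM per kb. Ankrd37, Ldhb, Eno3, Pdk3, Pfkfb3, Pdk1 and Eno2 were also each under 10 CPM per kb in all 4 samples. The other two that rose, at 20.3, 18.1, 13.2 and 12.6 CPM per kb for Aldoc and 2.95, 3.86, 1.54 and 2.22 CPM per kb for Ldhb, were below the most abundant members of their own enzyme steps, as was Pfkfb4 beside Pfkfb3. Levels of members with near-identical copies, Gapdh above all, are uncertain. So are those of members opposite another feature, among them Aldoa and Tpi1. The order is therefore one of counts and may not be that of the transcripts.

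Several members have near-identical copies, and the counts of a member and its copies cannot be cleanly told apart. Copies were taken as other annotated genes with a transcript match of at least 95% identity over 300 bases or more, and 11 members had any. The copies of Pgk1 and Pgam1 matched at 100%, so like ratios of a member and its copies are no separate support. For Gapdh, 76 copies held 70620 counts in all, against 4447 counts on Gapdh itself, and summed over all copies the ratio was -0.41 (-0.44 to -0.38) in males and -0.21 (-0.25 to -0.18) in females. For Eno1, 3 copies held 24218 counts against 5740 on Eno1, with ratios of -0.61 (-0.66 to -0.56) in males and -0.50 (-0.55 to -0.44) in females, close to Eno1 at -0.59 and -0.48. For Pgk1, 2 copies held 11022 counts against 3526 on Pgk1. The copies of Ldha, Tpi1, Pgam1 and Pkm held fewer counts than these members and were also lower in both sexes. Sizes differed for some. In males the copy of Pkm was at -0.51 (-0.57 to -0.44), against -0.38 (-0.43 to -0.34) for Pkm. That of Pgam1 was at -0.39 (-0.56 to -0.22) in males, against -0.63 (-0.76 to -0.49) for Pgam1. With the copies added to each member, an alternative chosen after seeing the data, every member kept its call of the test over both sexes. In males, Pgam1 with its copy was at -0.54, short of 1.5-fold.

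**Figure D3:**
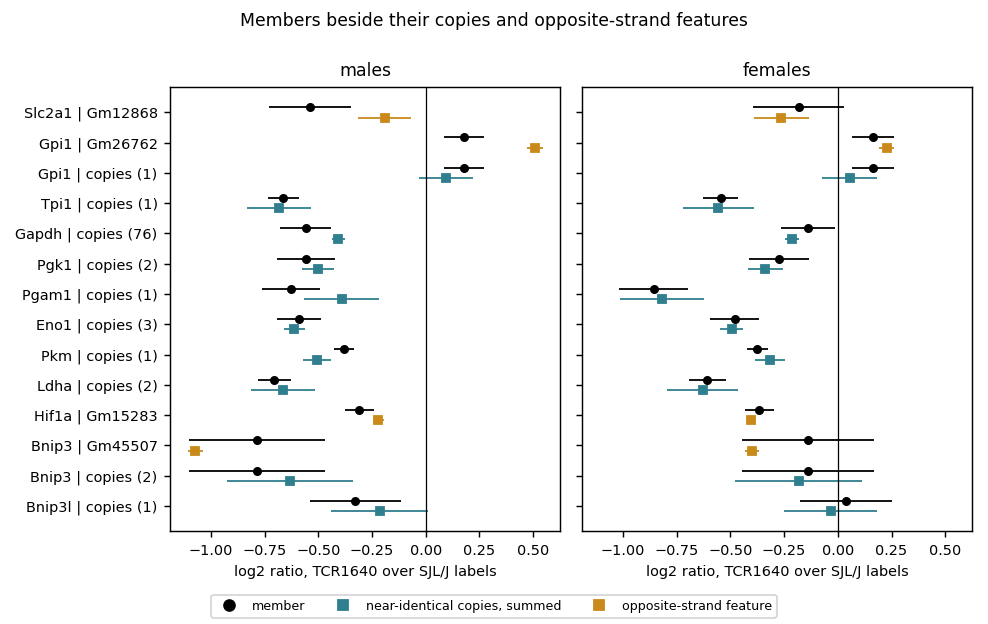
Log2 ratio of libraries labelled TCR1640 over SJL/J for members (black circles), their near-identical copies summed (teal squares) and features on the opposite strand (ochre squares), in males and females, with exact 95% counting intervals. Copies with 50 or more counts in every sample are shown. Most copies lie near their member. In males the copy of Pkm lies left of its member, those of Pgam1 and Gapdh lie right of theirs, and Gm26762 lies to the right of Gpi1.

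Exons of 11 members overlap a feature on the opposite strand. The largest such counts lay opposite Hif1a, where Gm15283 held 113099 counts against 14521 on Hif1a, with ratios of -0.22 (-0.25 to -0.20) in males and -0.40 (-0.43 to -0.38) in females. Opposite Bnip3, Gm45507 held 58796 counts against 707, at -1.07 (-1.11 to -1.04) in males and -0.40 (-0.43 to -0.37) in females, lower in the same direction as Bnip3. Opposite Gpi1, Gm26762 held 51917 counts against 7354 and was called higher, at 0.37 (SE 0.11, edgeR adjusted p = 0.00386), while Gpi1 itself did not pass. Opposite Slc2a1, Gm12868 held 4224 counts against 1662 and did not pass, at -0.23. Opposite Tpi1, the coding gene Spsb2 held 853 counts against 11436 and fell by 0.82 (edgeR adjusted p = 5.12e-06). Coding genes also held more counts than the member opposite Aldoa (Fam57b, 44006 against 24663), Ankrd37 (Lrp2bp, 2596 against 147, and Ufsp2, 663 against 147) and Pfkm (Senp1, 1220 against 1194), and none of these 4 partner genes was called. Opposite Pfkp (Pitrm1, 723 against 11858), Gapdh (Iffo1, 415 against 4447) and Hk1 (Hk1os, 93 against 6503) the feature held fewer counts than the member. The values of these 11 members are therefore uncertain in size. Those opposite a feature with more counts are uncertain in direction too. Of the 16 members with neither an overlap nor copies, 6 fell and 2 rose, with a median of -0.07, and the 6 were Hk2, Pfkl, Slc16a1, Slc16a3, Pdk3 and Ero1l. Against the background of 13.1% lower and 13.4% higher, this smaller set still held more lower calls, but its median lay near that of all genes. The number of calls varied with the setting. DESeq2 called 3 of these 16 lower and 0 higher (746 and 664 of all genes), and leaving out columns gave 4 to 6 lower. The strand from which the reads of these 16 members came was not tested either.

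Within pairs of related genes, the share of counts shifted between strain labels. These shares are not corrected for gene length and leave out near-identical copies, and their ratios carry counting intervals only. The 3 copies of Eno1 held 24218 counts against 5740 on Eno1, so the shares of Eno2 do not give its part in all enolase RNA. Of Ldha and Ldhb counts, Ldhb made up 1.79% and 2.48% in the males and females labelled TCR1640, against 0.581% and 0.952% in the males and females labelled SJL/J. The ratio of Ldhb to Ldha was thus higher in the libraries labelled TCR1640, by 1.64 (0.87 to 2.42) on the log2 scale in males and 1.41 (0.73 to 2.08) in females. Of Aldoa and Aldoc counts, Aldoc made up 8.27% and 7.65% in the males and females labelled TCR1640, against 5.23% and 5.68% in the males and females labelled SJL/J, a log2 shift of 0.71 (0.51 to 0.90) in males and 0.46 (0.25 to 0.67) in females. Of Eno1 and Eno2 counts, Eno2 made up 22.7% and 24.9% in the males and females labelled TCR1640, against 14.3% and 15.8% in the males and females labelled SJL/J, a shift of 0.82 in each sex (0.58 to 1.06 in males, 0.57 to 1.07 in females). In each of these 3 pairs the isoenzyme with fewer counts took the larger share in the libraries labelled TCR1640.

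Of Pdk1 and Pdk3 counts, Pdk1 made up 88.1% and 88.7% in the males and females labelled TCR1640, against 78.6% and 82.6% in the males and females labelled SJL/J, a shift of 1.01 (0.58 to 1.44) in males and 0.73 (0.24 to 1.22) in females. Of Pfkfb3 and Pfkfb4 counts, Pfkfb4 made up 15.1% and 18.0% in the males and females labelled TCR1640, against 9.39% and 8.93% in the males and females labelled SJL/J, a shift of 0.78 (0.11 to 1.45) in males and 1.17 (0.49 to 1.84) in females. Between the lactate transporters, Slc16a3 made up 67.3% and 70.3% in the males and females labelled TCR1640, against 75.8% and 75.5% in the males and females labelled SJL/J, a shift of -0.60 (-0.85 to -0.36) in males and -0.38 (-0.65 to -0.11) in females, so the exporter MCT4 lost share to MCT1. Between the glucose transporters, Slc2a1 made up 21.6% and 18.2% in the males and females labelled TCR1640, against 25.8% and 23.0% in the males and females labelled SJL/J, a shift of -0.34 (-0.55 to -0.12) in males and -0.42 (-0.65 to -0.19) in females. Between the hexokinases, Hk2 made up 28.4% and 29.9% in the males and females labelled TCR1640, against 28.8% and 27.1% in the males and females labelled SJL/J. The shifts were -0.03 (-0.21 to 0.16) in males and 0.20 (-0.0022 to 0.40) in females, both with intervals that include 0. For Pfkl within Pfkl and Pfkp, the shift was -0.12 (-0.27 to 0.04) in males and -0.31 (-0.49 to -0.14) in females.

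**Figure D4:**
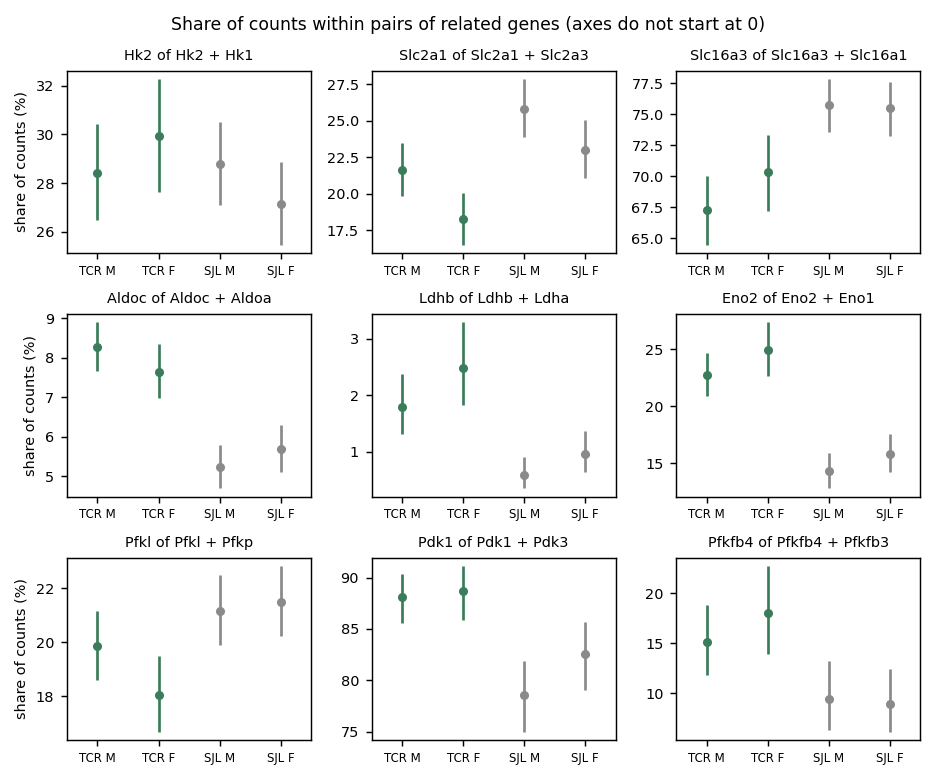
Share of counts (%) taken by the first gene of each of 9 pairs of related members in the 4 summed samples, males (M) and females (F) labelled TCR1640 in green, left of those labelled SJL/J in grey. Counts on near-identical copies are left out. Bars are exact 95% binomial intervals and the axes do not start at 0; Ldhb, Aldoc, Eno2, Pdk1 and Pfkfb4 took larger shares in the libraries labelled TCR1640, and Slc16a3 and Slc2a1 smaller ones.

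Other genes of these pathways were read in 6 lists with 77 tested genes, of which 8 rose (10.4%, against 13.4% of all genes) and 15 fell (19.5%, against 13.1%) in the libraries labelled TCR1640. Without TCR1640 male 2 or SJL/J female 2 the genes that rose numbered 4, and without SJL/J male 2 they numbered 5, while DESeq2 called 0 higher and 6 lower. Of 24 further hypoxia response genes, 7 fell (29.2%) and 0 rose. Among them were the transcriptional repressor Bhlhe40 (-0.58), the mitochondrial protein Higd1a (-0.78), Fam162a (-0.50), the collagen lysyl hydroxylase Plod2 (-0.84), the glycogen synthase Gys1 (-0.75) and the chemokine receptor Cxcr4 (-0.83). Vegfa, the vascular growth factor and a well-known HIF target, did not pass at 0.12. Of 12 tested HIF regulators, 2 fell (16.7%) and 1 rose (8.33%), against 13.1% and 13.4% of all genes. Epas1, which encodes the second oxygen-regulated HIF subunit, fell by 1.60 from 17 and 14 counts in TCR1640-labelled males and females against 39 and 48 in SJL/J-labelled ones, Cited2, a competitor of HIF for its coactivators, had -0.84, and the prolyl hydroxylase gene Egln2 rose by 0.52. Of 8 pentose phosphate genes, 3 fell (37.5%; Pgd -0.72, Rpia -0.90 and Tkt -0.58) and 0 rose.

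Of 13 tested genes for pyruvate entry into mitochondria, 1 fell and 1 rose (7.69% each, against 13.1% and 13.4% of all genes), and 11 did not pass. Bsg, the chaperone that carries lactate transporters to the cell surface, fell (-0.58) and the kinase Pdk2 rose (0.87). Of 9 tested further glycolytic isoenzymes, from a list of 21, 2 rose (22.2%) and 1 fell (11.1%). Gapdhs (0.55) and Pgam2 (0.53) rose and the glucose phosphatase G6pc3 (-0.96) fell. Gapdhs and Pgam2 are the sperm and muscle forms of enzymes whose main forms, Gapdh and Pgam1, fell. Of 11 growth regulators upstream of glycolysis, 4 rose (36.4%) and 1 fell (9.09%). Rptor (0.48), Rictor (0.43), Akt2 (0.51) and Tsc2 (0.35) rose, Akt1 (-0.38) fell, and Myc (-0.11) and Mtor (0.24) were among the 6 that did not pass. Exons of Bhlhe40, Higd1a, Fam162a, Plod2, Gys1, Gapdhs, Egln2, Rptor and Tsc2 overlap genes on the opposite strand, so their values are uncertain in size and possibly in direction.

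Between males and females, 0 of the 34 members passed the test over both strain labels in edgeR, and 0 had an unadjusted p under 0.05, where 1637 of all genes did. Among all genes 1.1% passed, 0.139% as higher and 0.962% as lower in males. DESeq2 and limma-voom also called 0 members. With the 8 columns taken as samples, Eno1 (0.20), Pkm (0.15) and Ldha (0.15) passed as higher in males, though the 2 columns of a group may not be independent samples. The members' median male-to-female log2 ratio was 0.08, against 0.00 for all genes, and none reached 1.5-fold with an interval excluding equality in either strain label, where 7.84% of all genes did in the libraries labelled TCR1640 (2.65% higher, 5.19% lower) and 6.77% in those labelled SJL/J (2.89% higher, 3.88% lower). Between the 2 columns of a group, the same rule picked 2.06% (TCR1640 males), 2.09% (TCR1640 females), 2.09% (SJL/J males) and 2.27% (SJL/J females) of all genes.

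**Figure D5:**
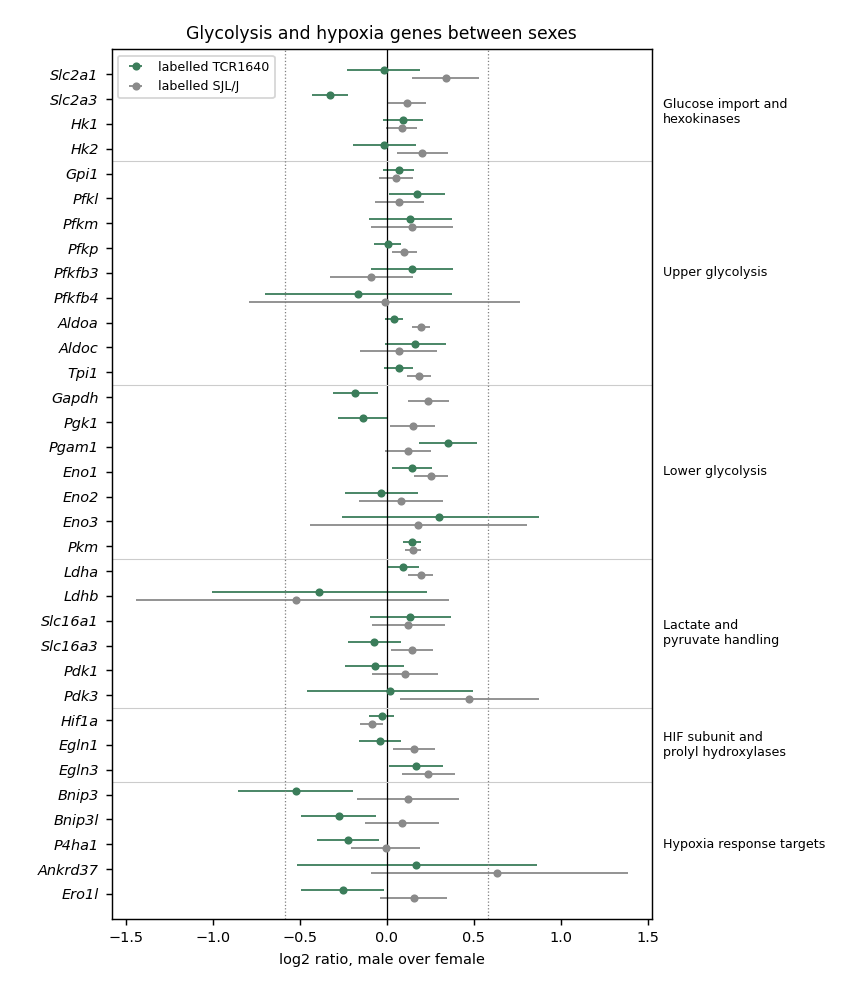
Log2 ratio of males over females for each of the 34 members in libraries labelled TCR1640 (green) and SJL/J (grey), with exact 95% counting intervals and dotted lines at 1.5-fold. Most grey points lie right of 0, and no member is past 1.5-fold with an interval that excludes 0.

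In the libraries labelled SJL/J, 29 of 34 members were higher in the male, with a median of 0.14, against 50.3% of all genes higher and a median of 0.00. In those labelled TCR1640, 18 of 34 were higher in the male, with a median of 0.01, against 50% of all genes. Slc2a3 was lower in the male of the TCR1640 label, at -0.32 (-0.43 to -0.22), and higher in the male of the SJL/J label, at 0.12 (0.01 to 0.23). Gapdh behaved likewise, at -0.18 (-0.31 to -0.05) and 0.24 (0.12 to 0.36). With its near-identical copies added, however, the Gapdh ratio in the TCR1640 label was -0.03, close to equality. The hypoxia targets Bnip3 at -0.52 (-0.85 to -0.19), Bnip3l at -0.28 (-0.49 to -0.06) and Ero1l at -0.25 (-0.49 to -0.01) were lower in the TCR1640-labelled male, while in the SJL/J label their intervals included equality, at 0.12 (-0.17 to 0.42), 0.09 (-0.12 to 0.30) and 0.15 (-0.04 to 0.35). These were the members with the lowest ratios of their role, so they were singled out after seeing the values. In the same role P4ha1 came next, at -0.22 (-0.40 to -0.05) in the TCR1640 label and -0.01 (-0.20 to 0.19) in the SJL/J label. Ankrd37 was at 0.17 (-0.51 to 0.87) and 0.64 (-0.09 to 1.38). Pkm was higher in males of both labels, at 0.15 (0.10 to 0.20) and 0.15 (0.11 to 0.20). With its near-identical copy added, the Pkm ratio in the TCR1640 label was 0.08. Neutrophil markers, at 162 CPM in the male and 66.3 CPM in the female labelled SJL/J, and erythroid and platelet markers, at 303 and 177 CPM, moved with sex in that label, and their part in the members' ratios was not tested. The difference of these sex ratios between strain labels had 1 sample a group and no test.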

How the data were processed

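The authors deposited one table of raw read counts per Ensembl gene for 8 columns, with no normalization; the values are whole numbers and column totals differ. Per the submitters' processing notes, bcl2fastq 2.17, Bowtie2, HTSeq and the mm10 build were used. A stranded mRNA kit was used, per the labels' protocols, but how strand was handled and which annotation was counted is not given in the sources used here. Of 52636 identifiers, 147 were not in GENCODE M21, and the table holds no summary rows.

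The 2 columns of each group were summed (they differ by little more than sampling noise), which leaves 4 samples, and p-values rest on their spread only. Genes passing filterByExpr (17261) were fitted in R 4.3.3 with edgeR 4.0.16 (TMM, quasi-likelihood test, strain label plus sex, Benjamini-Hochberg threshold 0.05, common coefficient of variation 9.78%); SE is the log2 ratio over the square root of F. CPM are on TMM library sizes. Within a sex or strain label, ratios carry exact 95% binomial intervals of counting error, with no test. DESeq2 1.42.0 and limma 3.58.1 (voom) were alternatives, beside other scalings, filters and left-out columns. Exon overlaps came from bedtools 2.31.1, copies from blastn 2.17.0 against GENCODE M21 transcripts, promoters from RefSeq. The members and lists were chosen with earlier results of these data known. The text names all 34 members by role. From the other lists it names genes that were called, though not every one, and some that are given as not passing.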

Additional observations from a re-analysis of the deposited data

Results flagged for a closer look

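A few members moved in opposite directions in the 2 sexes or the 2 strain labels, with counting intervals on opposite sides of equality. These differences were not tested, since each group is 1 sample. Slc2a3 (GLUT3) in libraries labelled TCR1640 over SJL/J had a log2 ratio of -0.20 (-0.31 to -0.10) in males and 0.24 (0.13 to 0.35) in females. Read as male over female, the same counts gave -0.32 (-0.43 to -0.22) in the libraries labelled TCR1640 and 0.12 (0.01 to 0.23) in those labelled SJL/J. Aldoa had -0.094 (-0.14 to -0.04) in males and 0.060 (0.01 to 0.11) in females between strain labels. Gapdh, male over female, had -0.18 (-0.31 to -0.05) in the libraries labelled TCR1640 and 0.24 (0.12 to 0.36) in those labelled SJL/J. With its near-identical copies added, an alternative chosen after seeing the data, Gapdh was at -0.03 in the libraries labelled TCR1640, close to equality.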

How the results depend on the processing

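No alternative reversed the direction of any of the 20 members called between strain labels, and scalings moved the median of all genes by under 0.1 on the log2 scale. Between strain labels 3 members were called higher and 17 lower, and 8 and 15 genes of the other pathway lists. DESeq2 called 664 genes higher and 746 lower, 0 members higher and 8 lower, and 0 and 6 pathway genes. With 8 columns as samples, 6 members and 13 pathway genes were higher, with or without the replicate block, and with no filter 5 pathway genes were higher. Leaving out columns gave 1472 to 2162 genes higher and 1509 to 2201 lower, 13 to 17 members lower, and 2 to 7 pathway genes higher (4 or 5 without TCR1640 male 2, SJL/J female 2 or SJL/J male 2). It gave 1 to 3 members higher, with 1 without SJL/J male 1 and 1 with either column number alone. At 2-fold, 0 members passed in either sex. With 1 column a group, 0 (number 2) to 3 members were higher in males, and in females 1 was higher and 5 to 7 (number 1) lower.

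Between sexes, 24 genes higher and 166 lower became 15 and 93 with upper-quartile factors, 10 and 88 with TMM factors from genes without opposite-strand overlap, and 4 and 3 in DESeq2, and lower calls became 101 with no filter. Leaving out columns gave 4 (without TCR1640 male 2) to 21 higher and 4 (the same column) to 122 lower. With 8 columns as samples they were 381 and 788 without the replicate block (3 members higher, pathway genes 4 and 3) and 252 and 621 with the replicate block (1 member higher, pathway genes 3 and 2). Taldo1, the 1 pathway gene called higher in males (0.61, edgeR adjusted p = 0.0406), was lost under upper-quartile and overlap-free factors, no filter, DESeq2 and limma-voom (0 called each), and under 9 of 10 settings that left columns out, all but SJL/J female 1 (0 to 1). With the number 1 columns alone, 1 member was higher and 1 lower between sexes in SJL/J (0 to 1 over such settings). Deviations of same-numbered columns from their group means correlated between -0.015 and 0.021, and between -0.010 and 0.042 over 5702 genes with more counts. The columns of a group differ by little more than sampling noise, so this cannot decide whether replicate numbers pair samples. The causes were not tested. Depth limits Pfkfb4, Ldhb, Eno3, Pdk3 and Ankrd37, whose intervals are wide.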
